A study of Macaca fascicularis with 11 samples.

Results

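The trophoblast of cynomolgus embryos on Day 14 of culture was compared between ISL1 mutant and wild-type embryos. Trophoblast cells were picked by a score, since no deposited table names the cells. In every cell the mean of ln(1 + UMIs per 10000) was taken over trophoblast genes (CGA, XAGE3, PGF, KRT7, HSD3B1, VGLL1 and INSL4), epiblast genes (POU5F1, IFITM1, L1TD1, DPPA4 and DNMT3B), mesenchyme genes (COL3A1, COL1A1, COL6A2, HGF, CCDC80, HAND2 and POSTN) and endoderm genes (APOA1, TTR, FOXA2, SOX17, IHH and VTN), and a cell counted as trophoblast where the first of these was the highest. A UMI is a molecular identifier, so that a count stands for a captured transcript. This gave 12579 cells of the 18067 in the 4 Day 14 libraries, and of 33330 in the 11 libraries of the series. The score genes chose the cells, so their levels are given as a description without a test.

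Trophoblast is the outer cell lineage of the implanting embryo and forms the epithelium of the placenta. Its proliferating cells (cytotrophoblast) either fuse into a hormone-secreting syncytium, which makes choriogonadotropin, or become invasive extravillous cells that enter the uterine wall. ISL1 is a LIM homeodomain transcription factor best known from heart, motor neuron and islet development, and within the early embryo its transcripts mark amnion rather than trophoblast.

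Both genotypes were in vitro cultured embryos (IVC), thawed as blastocysts and grown in the same media. The wild-type Day 14 libraries each held 2 embryos, and the ISL1 hypomorphic mutant libraries held 3 embryos (replicate 1) and 1 embryo (replicate 2). Mutant zygotes had received Cas9 and 2 guide RNAs against ISL1, so edits differ between the cells of an embryo, whereas nothing in the labels gives wild-type embryos an injection. The labels call replicates 1 and 2 batches B1 and B2 in both genotypes. Injection, embryo source and genotype cannot be told apart.

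Trophoblast accounted for 2411 of 3176 cells (75.9%, exact binomial 95% interval 74.4% to 77.4%) and 886 of 1384 cells (64.0%, 61.4% to 66.6%) in wild-type replicates 1 and 2, and for 6582 of 9625 (68.4%, 67.4% to 69.3%) and 2700 of 3882 (69.6%, 68.1% to 71.0%) in mutant replicates 1 and 2. The intervals cover counting error only. The mean share was 70.0% ± 8.41 in wild-type and 69.0% ± 0.825 in mutant libraries (SD, n = 2 each), and the exact two-sided permutation test gave p = 1, where 2 libraries against 2 cannot go below 0.333. The difference of the means was smaller than the spread between the wild-type libraries. In the same order of libraries, only 2, 3, 29 and 3 trophoblast cells led their next score by under 0.1. A lead of at least 1 was held by fewer cells, 2063 and 692 in wild-type and 4581 and 2115 in mutant replicates 1 and 2.

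The libraries differed in quality as well as in genotype. The median trophoblast cell held 48780 and 27568.5 UMIs in wild-type replicates 1 and 2 but 11389.5 and 27713.5 in mutant replicates 1 and 2. Trophoblast sums ranged from 25790796 to 127320297 UMIs per library. Mitochondrially encoded transcripts made up a median of 2.59% and 6.84% of UMIs in the wild-type and 8.04% and 6.59% in the mutant libraries, so that wild-type replicate 1 stood apart. The ambient correction had removed 2.98% and 0.457% of trophoblast UMIs in wild-type and 8.76% and 3.22% in mutant libraries. Between 0 and 15 cell barcodes were shared by any pair of Day 14 libraries.

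CGA, PGF and KRT7 mark trophoblast, and since they belong to the score their levels only describe the chosen cells. CGA, the common alpha subunit of choriogonadotropin, stood at 6984 and 11118 UMIs per 1000000 trophoblast UMIs (CPM) in the wild-type libraries and at 3603 and 10840 CPM in the mutant ones. PGF, placental growth factor, was at 266 and 472 CPM in wild-type and 239 and 388 CPM in mutant libraries. KRT7, a simple-epithelium keratin, was at 360 and 272 CPM in wild-type and 282 and 160 CPM in mutant libraries. Mutant and wild-type values overlapped for all 3 genes. Among genes outside the scores, the trophoblast factor GATA3 was at 165 to 207 CPM in trophoblast and at 9.41 to 25.5 CPM in mesenchyme-scored cells of the same libraries, and TFAP2A was at 95.8 to 141 CPM beside 2.48 to 9.58 CPM. ISL1 itself was close to the detection limit in trophoblast, with 108 and 28 UMIs (0.848 and 1.09 CPM) in wild-type and 117 and 86 UMIs (1.42 and 1.04 CPM) in mutant libraries. The reads come from the 3′ end of transcripts and the edit lies at the start of the coding sequence, so the ISL1 level checks neither the edit nor the labels.

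Gene levels were compared by summing UMIs over the trophoblast cells of each library and fitting all genes with edgeR's quasi-likelihood test (two-sided, Benjamini-Hochberg adjusted, false discovery rate 1%). Of 13910 genes tested none passed (0.0%), at 1% or at 5%, and 1695 had an unadjusted p under 0.05 (12.2%), 959 of them higher (6.89%) and 736 lower (5.29%) in the mutant. DESeq2 on the same sums called 159 genes higher (1.14%) and 81 lower (0.582%) at 1%. With 2 libraries per genotype and a biological coefficient of variation of 0.346, edgeR called nothing, and the values that follow are therefore given library by library. A gene is called separated where both mutant libraries lay above both wild-type ones, or both below. That held for 25.1% of tested genes above and 21.1% below, so separation of a single gene says little. A separated gene also has the same direction within each labelled batch, where a single mutant library meets a single wild-type one. Where a library is left out, 2 libraries meet 1 and separation is easier, with 31.5% to 45.9% of all genes above and 26.8% to 46.0% below. Symbols could be given to 890 tested genes only, of which 30.8% were separated upwards and 18.5% downwards.

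Among genes with a symbol and outside the scores, the 10 of smallest p in the upward direction were CA12, DLK1, FSTL1, NDRG1, ZFAT, SPNS2, IFNGR2, WFDC1, SPAG4 and EPSTI1. None passed the test (adjusted p between 0.288 and 0.297, edgeR). CA12 (ENSMFAG00000040970), a membrane carbonic anhydrase, was at 1.67 and 2.48 CPM in wild-type and 20.1 and 18.4 CPM in mutant trophoblast, a log2 difference of 3.26 ± 0.26 (SE). NDRG1 (ENSMFAG00000044300), a stress-responsive gene that also protects trophoblast under low oxygen, was at 19.3 and 24.3 CPM in wild-type and 95.8 and 153 CPM in mutant libraries (log2 difference 2.56 ± 0.33). The wild-type values of both genes lay close together and the mutant libraries sat several fold above them.

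SPAG4 (ENSMFAG00000033014), a nuclear envelope protein known as a hypoxia target, was at 4.78 and 2.21 CPM in wild-type and at 38.5 CPM in each mutant library (log2 difference 3.41 ± 0.49). ZFAT (ENSMFAG00000041283), a zinc-finger regulator that is imprinted in human placenta, was at 18.3 and 37.8 CPM in wild-type and 162 and 174 CPM in mutant libraries (2.64 ± 0.34). FSTL1 (ENSMFAG00000036133), a secreted antagonist of BMP signalling, was at 48.4 and 55.1 CPM in wild-type and 207 and 140 CPM in mutant libraries (1.76 ± 0.22). These 3 genes were separated by more than the spread within either genotype. SPNS2 (ENSMFAG00000043676), the exporter of sphingosine-1-phosphate, was at 0.785 and 1.16 CPM in wild-type and 15.2 and 40.3 CPM in mutant libraries, with a wide gap between the mutant libraries. The interferon gamma receptor subunit IFNGR2 (ENSMFAG00000001717) was at 7.70 and 9.15 CPM in wild-type and 26.7 and 20.8 CPM in mutant libraries, and the interferon-induced EPSTI1 (ENSMFAG00000040540) was at 4.90 and 3.64 against 18.3 and 17.9 CPM.

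The remaining 2 genes of that group were scarce. DLK1 (ENSMFAG00000035336), an imprinted Notch-family ligand of stromal cells, had 15 and 1 UMIs in wild-type and 469 and 872 UMIs in mutant trophoblast (0.118 and 0.0388 against 5.71 and 10.6 CPM). Mesenchyme-scored cells of the same mutant libraries held far more of it, 99.0 and 110 CPM, against 0.563 and 0.131 CPM in the wild-type libraries. WFDC1 (ENSMFAG00000042597), a secreted protease-inhibitor-like protein, was at 0.126 and 0.0775 CPM in wild-type and 1.48 and 1.59 CPM in mutant trophoblast.

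**Figure D1:**
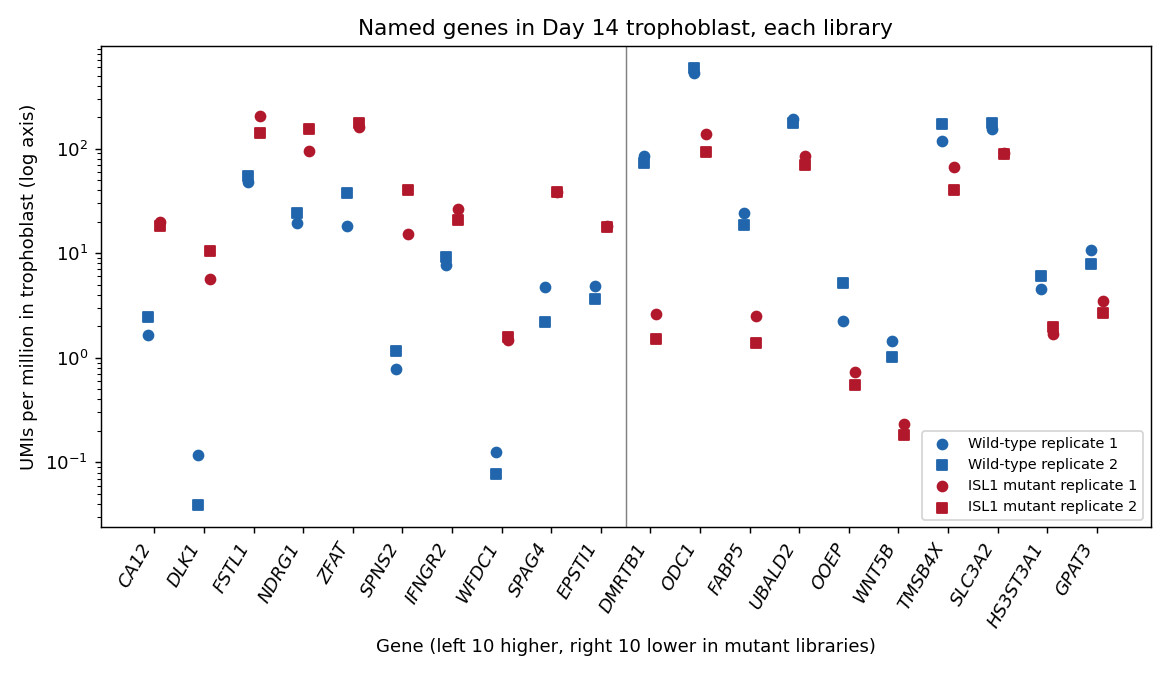
Levels of the 20 named genes in UMIs per 1000000 (log axis) in the Day 14 trophoblast of each library, wild-type in blue and ISL1 mutant in red, with circles for replicate 1 and squares for replicate 2. Mutant and wild-type libraries do not overlap for any of the 20, as the choice by smallest p favours, and DMRTB1 shows the largest gap downwards (73.6 and 85.5 against 1.53 and 2.60 CPM).

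In the downward direction DMRTB1 (ENSMFAG00000040855), a DM-domain transcription factor of the germ line, had the smallest p of all genes with a symbol. Its level was 85.5 and 73.6 CPM in wild-type and 2.60 and 1.53 CPM in mutant trophoblast, 38.5-fold lower by the means (log2 difference -5.27 ± 0.35, adjusted p = 0.234, edgeR; DESeq2 adjusted p = 1.12e-41). ODC1 (ENSMFAG00000038147), the rate-limiting enzyme of polyamine synthesis, was at 530 and 592 CPM in wild-type and 137 and 92.0 CPM in mutant libraries (-2.28 ± 0.24, adjusted p = 0.288). FABP5 (ENSMFAG00000041668), a fatty acid carrier, was at 24.0 and 18.6 CPM in wild-type and 2.48 and 1.38 CPM in mutant libraries. Its symbol is shared by another identifier, so reads may be split between near-identical copies.

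The other 7 genes had larger p-values, with adjusted p between 0.336 and 0.352 (edgeR). UBALD2 (ENSMFAG00000038534) was at 192 and 175 CPM in wild-type and 85.6 and 69.2 CPM in mutant libraries. SLC3A2 (ENSMFAG00000031928), the heavy chain of the large neutral amino acid transporters, was at 155 and 174 against 90.9 and 89.5 CPM. Within each genotype these values lay close together. GPAT3 (ENSMFAG00000000396), an enzyme of triglyceride synthesis, was at 10.7 and 7.91 against 3.52 and 2.70 CPM, and the heparan sulfotransferase HS3ST3A1 (ENSMFAG00000041774) at 4.55 and 6.09 against 1.70 and 1.99 CPM. TMSB4X (ENSMFAG00000043121), an actin-binding thymosin with several near-identical copies that counting may split, was at 119 and 172 against 67.2 and 40.0 CPM. The oocyte factor OOEP (ENSMFAG00000044288) and the ligand WNT5B (ENSMFAG00000033973) were low throughout, at most 5.16 and 1.45 CPM in wild-type and 0.730 and 0.231 CPM in mutant libraries.

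Hypoxia and glycolysis genes stood higher together in mutant trophoblast. Cells at low oxygen stabilise hypoxia-inducible factors, which switch on glucose uptake, glycolysis and a set of stress and vascular genes. Of 33 members tested, 26 were separated upwards and none downwards, beside 25.1% and 21.1% of all genes. Their median log2 difference was 0.83, beside 0.03 for all genes tested. None passed at 1% with edgeR. At an unadjusted p under 0.05 were 13, all higher, beside 6.89% of all genes and 117 of the 890 genes with a symbol. DESeq2 called 7, also higher, beside 1.14% of all genes and 33 of those 890. Identifiers of 23 members came only from the study's tables of genes that differed between genotypes in these same libraries, so the count is not independent evidence of direction. Of all 308 tested genes with such identifiers 121 were separated upwards, and of genes with any symbol 30.8%. Of the other 10 members 8 were separated upwards and none downwards, beside 153 and 110 of all 582 tested genes with identifiers from the other tables. The list was chosen with earlier results of these data known, so these 10 are not independent evidence either.

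The members span the steps of the response. ANKRD37 (ENSMFAG00000033324), a direct target of hypoxia-inducible factor, was at 5.29 and 3.30 CPM in wild-type and 21.2 and 23.1 CPM in mutant libraries (log2 difference 2.35 ± 0.37). P4HA1, a collagen prolyl hydroxylase, was at 66.1 and 62.0 against 128 and 136 CPM (1.06 ± 0.21). EPO, the hormone of red cell production, was scarce, at 0.683 and 0.233 against 3.32 and 5.74 CPM. In each of these genes the mutant libraries lay above the wild-type ones by more than the gap within a genotype. ENO1, a glycolytic enzyme, was at 910 and 813 against 1291 and 1350 CPM, and the glycolytic regulator PFKFB4 at 2.87 and 4.03 against 8.52 and 11.1 CPM. The glucose transporter SLC2A1 was at 132 and 255 CPM in wild-type and 259 and 359 CPM in mutant libraries, so that wild-type replicate 2 lay just below mutant replicate 1. GAPDH overlapped, at 3222 and 1867 against 2943 and 2921 CPM, as did DDIT4 and ADM, whose log2 differences were -0.66 and -0.18. Summed over the list, the level was 8458 and 5913 CPM in wild-type and 10402 and 11532 CPM in mutant trophoblast.

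The same genes were looked at in mesenchyme-scored cells of the same libraries, of which there were 158 and 350 in wild-type and 2558 and 1081 in mutant replicates. There 28 of the 33 were separated upwards and none downwards, beside 23.3% and 25.9% of the 11568 genes tested in both classes, and the median log2 difference was 2.30. NDRG1 was at 4.28 and 7.63 CPM in wild-type and 50.7 and 114 CPM in mutant mesenchyme-scored cells, and SPAG4 at 1.01 and 1.18 against 13.9 and 14.6 CPM. The mutant level of both genes was thus higher in trophoblast than in mesenchyme-scored cells. CA12 did not follow, being at 5.41 and 1.84 against 4.77 and 1.78 CPM in mesenchyme-scored cells. The mutant effect in trophoblast minus that in mesenchyme-scored cells was 3.47 ± 0.81 for CA12 and -1.24 ± 0.34 for NDRG1 on the log2 scale, and neither passed (adjusted p = 0.487 and 0.524, edgeR with the library as a block). No gene of 13710 passed that test (0.0%), and 981 had an unadjusted p under 0.05, so no member is shown to differ between the classes.

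**Figure D2:**
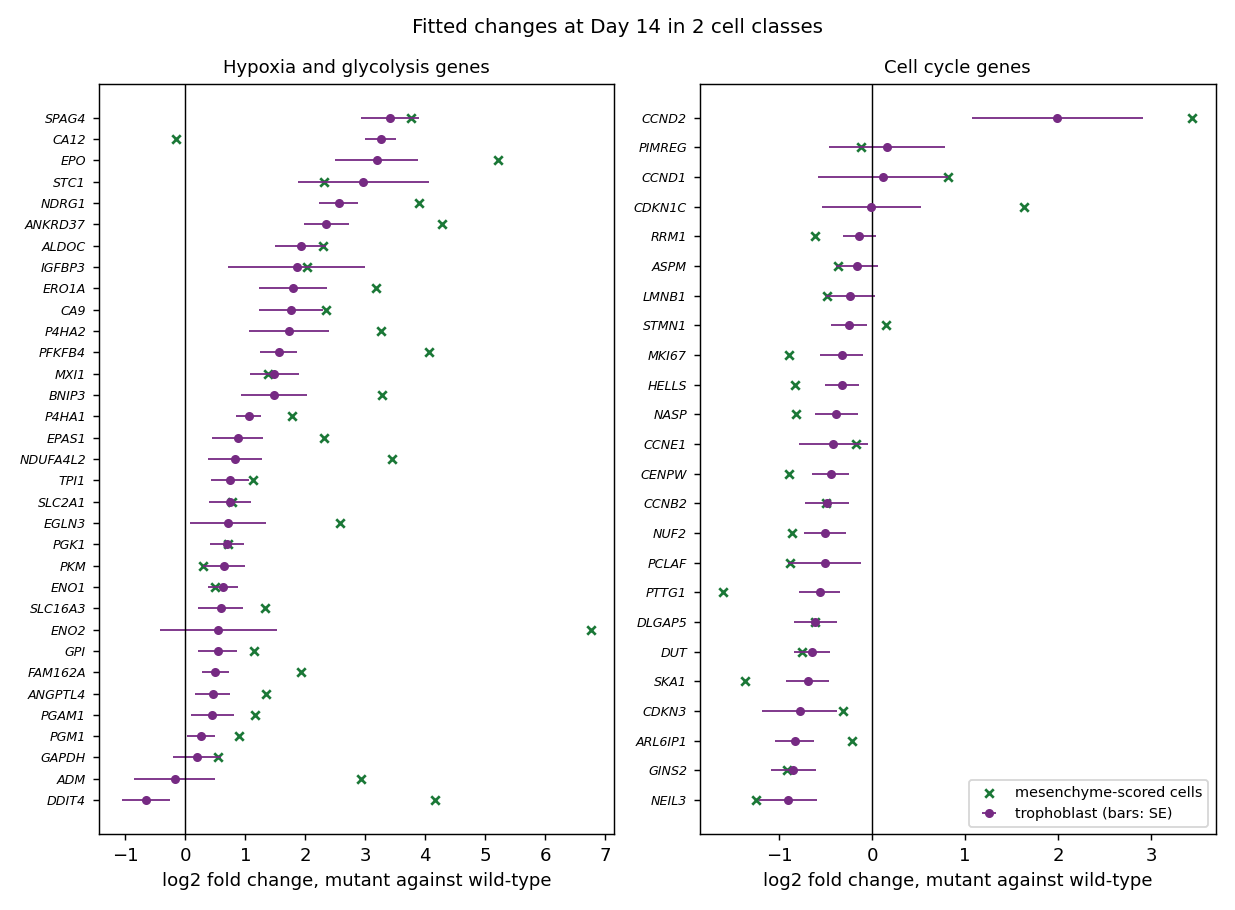
Fitted log2 fold changes of mutant against wild-type at Day 14 for the 33 hypoxia and glycolysis genes (left) and the 24 cell cycle genes (right), with circles for trophoblast and their standard errors as bars, and crosses for mesenchyme-scored cells of the same libraries. Most circles lie right of 0 on the left side (median 0.83) and left of 0 on the right side (median -0.43).

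Cell cycle genes were mostly lower in mutant trophoblast. Of 24 members tested 13 were separated downwards and none upwards, beside 21.1% and 25.1% of all genes, with a median log2 difference of -0.43. Their summed level overlapped, at 14232 and 8765 CPM in wild-type and 9938 and 10767 CPM in mutant libraries. No member passed at 1% with edgeR or DESeq2. At an unadjusted p under 0.05 (edgeR) were 6, all lower, beside 5.29% of all genes and 61 of the 890 genes with a symbol. Identifiers of 14 members came only from the tables of genes that differed between genotypes. Of all 308 tested genes with such identifiers 55 were separated downwards. Of the other 10 members 5 were separated downwards and none upwards, beside 110 and 153 of all 582 tested genes with identifiers from the other tables. This list too was chosen with earlier results known. DUT, which keeps uracil out of DNA, was at 319 and 317 CPM in wild-type and 215 and 187 CPM in mutant libraries (-0.64 ± 0.19). GINS2, a subunit of the replicative helicase, was at 33.4 and 54.6 against 26.5 and 21.1 CPM, and SKA1, a kinetochore protein, at 13.1 and 18.1 against 10.8 and 8.08 CPM. ARL6IP1, an endoplasmic reticulum membrane protein that peaks in dividing cells, was at 145 and 219 against 108 and 91.4 CPM. Wild-type replicate 2 was the highest library for GINS2, SKA1 and ARL6IP1. In mesenchyme-scored cells 16 of the 24 were separated downwards and 2 upwards, beside 25.9% and 23.3% of all genes there.

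The share of cells with a UMI of MKI67, a proliferation antigen, was taken after thinning every cell to 5000 UMIs. This left out 32 and 19 shallower wild-type and 741 and 79 mutant trophoblast cells. A UMI of MKI67 was found in 29.2% and 42.1% of wild-type and 29.8% and 20.6% of mutant trophoblast cells, and the genotypes overlapped. Without thinning the shares were 67.3% and 78.9% against 42.6% and 41.6%. Wild-type and mutant replicate 2, of nearly equal median depth, differed with thinning and without it, while the replicate 1 libraries were close after thinning. The cause was not tested. CCNE1, a cyclin of DNA replication entry, was found in 93.1% and 97.3% of wild-type and 88.5% and 86.0% of mutant cells after thinning. CDKN1C, a cell cycle inhibitor, was found in at least 99.1% in every library. In thinned mesenchyme-scored cells the shares were 12.4% to 52.5% for MKI67, 20.9% to 34.8% for CCNE1 and 25.3% to 85.2% for CDKN1C. There both mutant libraries lay below both wild-type ones for MKI67 and for CCNE1, while the genotypes overlapped for CDKN1C.

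The subtype makeup was described with genes of invasive and proliferating trophoblast. LAIR2, a secreted collagen receptor of extravillous cells, had a UMI in 51.8% and 24.7% of wild-type and 41.6% and 34.6% of mutant cells after thinning. For ISM2, a placental secreted protein, the shares were 61.5% and 24.2% in wild-type and 57.6% and 49.8% in mutant cells. The thinned cells were also split by a LAIR2 or ISM2 UMI, which left 717 and 520 wild-type and 2335 and 1145 mutant cells without either at this depth. Both wild-type libraries lay outside the mutant range of shares, on opposite sides, so the spread within the wild-type exceeded any gap between genotypes. Mesenchyme-scored cells should lack both genes. After the same thinning their LAIR2 shares were 1.27% and 0.286% in wild-type and 5.72% and 2.88% in mutant libraries. The ISM2 shares were 2.53% and 2.00% against 7.19% and 3.25%, so both genes were higher in the mutant libraries there. Without thinning the shares in mesenchyme-scored cells were 3.43% to 13.3%, and ISM2 overlapped between genotypes. Median depths were 10218 to 52982 UMIs. Unthinned trophoblast cells had shares of 34.2% to 85.4%. PAGE4, a placental antigen typical of cytotrophoblast, was found in 75.9% and 63.3% of wild-type and 80.8% and 87.2% of mutant cells, with the mutant libraries above, and in 9.49% to 22.9% of mesenchyme-scored cells.

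Invasive trophoblast genes were more often higher than lower in mutant trophoblast, and none passed with edgeR. Of 17 members outside the scores, 8 were separated upwards and 2 downwards, beside 25.1% and 21.1% of all genes and 30.8% and 18.5% of genes with a symbol, with a median log2 difference of 0.58. Of the 15 members other than LAIR2 and ISM2, 7 were separated upwards and 2 downwards, in thinned cells 5 and 2, and in thinned cells without LAIR2 and ISM2 UMIs 3 and 3, beside 21.5% and 20.4% of all genes in those cells. ADAM19, a cell surface metalloprotease, was at 3.27 and 1.24 CPM in wild-type and 12.8 and 10.1 CPM in mutant libraries (2.28 ± 0.57; DESeq2 adjusted p = 0.00520). SERPINE2, a protease inhibitor, was at 53.4 and 6.86 against 264 and 142 CPM, and the integrin subunit ITGB2 at 93.9 and 39.6 against 154 and 148 CPM. TIMP1, an inhibitor of metalloproteases, was at 7.78 and 12.8 against 19.9 and 14.1 CPM. Without wild-type replicate 2, the library with few LAIR2 and ISM2 cells, the median of the list became -0.03. Without wild-type replicate 1 it was 0.94, with 12 separated upwards, beside 37.5% of all genes.

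Trophoblast regulators and keratins were more often lower than higher, and none passed. Of 26 members, 10 were separated downwards and 4 upwards, beside the 21.1% and 25.1% of all genes, and the median was -0.12. In thinned cells without LAIR2 and ISM2 UMIs 8 were separated upwards and 7 downwards, beside 21.5% and 20.4% of all genes in those cells. The median was 0.04 there, -0.01 in all thinned cells and 0.04 without mutant replicate 1. Without mutant replicate 2 it was -0.43, with 17 separated downwards, beside 26.8% of all genes. The direction of the list thus turned with the cells and libraries used at Day 14. PPARG, a nuclear receptor needed for trophoblast differentiation, was at 255 and 201 CPM in wild-type and 145 and 128 CPM in mutant libraries (-0.74 ± 0.25). MSX2, a homeobox gene, was at 92.6 and 285 against 46.2 and 70.4 CPM, and MDFI, an inhibitor of basic helix-loop-helix factors, at 124 and 215 against 106 and 87.4 CPM. PAGE4 was the other way round, at 939 and 702 against 1575 and 1670 CPM. The keratins KRT8 and KRT18 of simple epithelia were lower in mutant trophoblast (log2 differences -0.42 ± 0.30 and -0.54 ± 0.29), while in mesenchyme-scored cells they were higher (1.01 and 1.18). The test of that difference gave -1.39 ± 0.24 and -1.79 ± 0.31 (adjusted p = 0.316 for both, edgeR). Thinned mesenchyme-scored cells of the mutant libraries also had larger shares with UMIs of LAIR2 and of ISM2. The part of trophoblast RNA in their keratin values was not tested. GATA2, GATA3 and TFAP2A, the core trophoblast transcription factors, overlapped between genotypes, and TFAP2C was at 55.9 and 76.1 against 38.0 and 52.6 CPM.

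Few hormone and steroid genes had an identifier. Of 6 outside the scores, 2 were separated upwards and 1 downwards, close to the shares of all genes (25.1% and 21.1%), with a median of 0.37 that became 0.88 without wild-type replicate 1 and -0.12 without wild-type replicate 2. FDX1, the electron donor of steroid synthesis in mitochondria, was at 609 and 533 CPM in wild-type and 275 and 317 CPM in mutant libraries (-0.93 ± 0.25). HSD3B1, the placental enzyme that makes progesterone and a gene of the score, was at 557 and 712 CPM in wild-type and 198 and 321 CPM in mutant libraries. GCM1, the regulator of syncytium formation, overlapped at 135 and 106 against 149 and 133 CPM. CRHBP and KISS1, the 2 separated upwards, stayed at or below 2.59 CPM in every library.

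Interferon-stimulated genes were more often higher than lower in mutant trophoblast. Of 9 members tested 6, IFNGR2 among them, were separated upwards and none downwards, with a median of 1.12. Of all genes 25.1% and 21.1% were so separated, and of genes with a symbol 30.8% and 18.5%. DESeq2 called 2 as higher, EPSTI1 and the receptor subunit IFNGR2, which is no target of interferon, beside 1.14% of all genes. IFI6, which limits cell death, was at 89.9 and 77.0 CPM in wild-type and 173 and 185 CPM in mutant libraries (1.12 ± 0.23). IFITM2, a membrane protein that blocks virus entry, was at 16.8 and 21.5 against 37.7 and 75.5 CPM for the identifier with the smaller p (ENSMFAG00000040595), whereas a second identifier of the same symbol overlapped between genotypes, so this family is uncertain. A list of immediate early and heat shock genes, which also holds SAT1 and PNRC1, was more often higher at Day 14. Of its 7 members 5 were separated upwards, HSPB1 among them, and 1, HSPD1, downwards, beside the same shares. The median was 0.95 (1.55 without wild-type replicate 1). FOS was at 135 and 27.2 against 305 and 287 CPM. SAT1, which breaks down polyamines, was at 578 and 448 against 873 and 1092 CPM. BTG2, an inhibitor of proliferation, was at 11.9 and 8.10 against 20.4 and 50.4 CPM, and PNRC1, a nuclear receptor coactivator, at 52.9 and 16.3 against 80.1 and 105 CPM.

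Other stress genes were mixed. Of 12 endoplasmic reticulum stress genes, 5 were separated upwards and 2 downwards, beside 25.1% and 21.1% of all genes, with a median of 0.17 that became 0.54 without wild-type replicate 1 and -0.05 without wild-type replicate 2. HSP90B1, the chaperone of that compartment, was at 968 and 977 CPM in wild-type and 2066 and 1546 CPM in mutant libraries. Of the 6 endoplasmic reticulum stress genes with identifiers only from the tables of genes that differed between genotypes, 4 were separated upwards (median 0.31). Of the other 6, 1 was separated upwards and 2 downwards (median -0.11). Of 10 metallothionein and oxidative stress genes, 4 were separated downwards and 1 upwards, beside 21.1% and 25.1%, with a median of -0.11 that became 0.09 without wild-type replicate 1 and -0.44 without mutant replicate 2. The metal-binding MT1M was at 55.5 and 248 against 12.6 and 16.5 CPM and was called by DESeq2 (adjusted p = 2.10e-05), though metallothioneins are near-identical copies that counting may split.

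Signalling lists were close to the background or mixed. Of 12 BMP and TGF-beta genes, 4 were separated upwards and 1 downwards, beside 25.1% and 21.1% of all genes, with a median of 0.48. Without wild-type replicate 1 these were 8 and 3, beside 37.5% and 46.0% of all genes, with a median of 1.23. Of the 6 members with identifiers only from the tables of genes that differed between genotypes, 3 were separated upwards and none downwards (median 1.62). Of the other 6, 1 was separated upwards and 1 downwards (median -0.03). The direction of the list is thus not independent evidence. TGFBI, a matrix protein induced by TGF-beta, was at 0.471 and 0.349 CPM in wild-type and 4.67 and 2.16 CPM in mutant libraries, and the ligand TGFB1 at 23.9 and 3.53 against 72.6 and 120 CPM. BMP4, the ligand, and its targets ID1, ID2, ID3 and ID4 overlapped between genotypes. Of 15 WNT genes, 2 were separated upwards and 3 downwards, with a median of -0.22, which became -0.99 without mutant replicate 1, 0.22 without mutant replicate 2, 0.13 without wild-type replicate 1 and 0.04 without wild-type replicate 2. The imprinted list does not hold ZFAT. Of its 7 genes, DLK1 and GNAS were separated upwards and none downwards, beside 25.1% and 21.1% of all genes. Its median of 0.24 became 0.88 without wild-type replicate 1, 0.13 without wild-type replicate 2 and 0.07 without mutant replicate 2. For the 5 imprinted genes with identifiers from tables other than those of genotype differences it was -0.009, with 1 separated upwards. CDKN1C, which is imprinted and restrains placental growth, was at 9699 and 4177 against 6401 and 7545 CPM. Of 13 mitochondrially encoded genes, 3 were separated upwards and none downwards, beside 25.1% and 21.1% of all genes, with a median of 0.33 that became -0.26 without wild-type replicate 1 and 1.63 without wild-type replicate 2. CYTB, a subunit of respiratory complex III, was at 5783 and 11180 against 17546 and 17134 CPM, wild-type replicate 1 being far below the other libraries as it was in mitochondrial share.

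**Figure D3:**
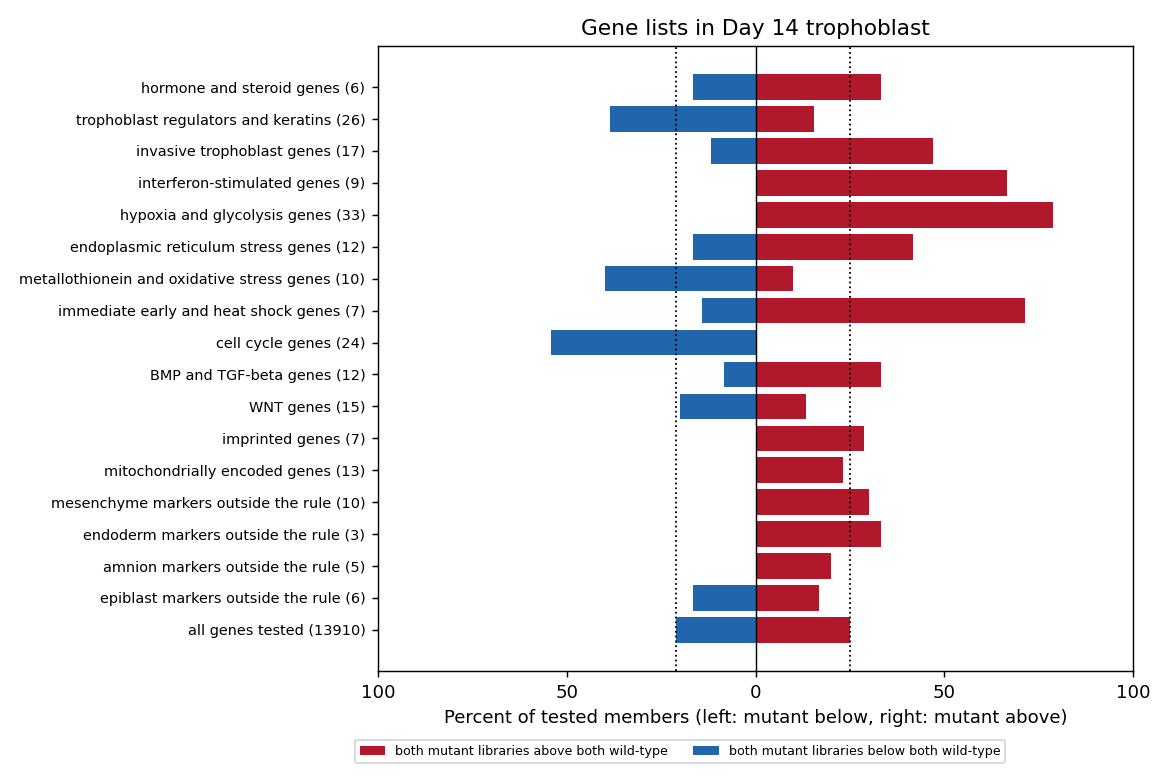
Share of tested members (number in brackets) of 17 gene lists with both mutant libraries above (red, right) or below (blue, left) both wild-type libraries in Day 14 trophoblast, with dotted lines at the 25.1% and 21.1% of all 13910 genes. Hypoxia and glycolysis genes reach furthest right (26 of 33) and cell cycle genes furthest left (13 of 24).

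Markers of other cell types were checked because a droplet or a sum can hold foreign RNA. Of 10 mesenchyme markers outside the scores, 3 were separated upwards and none downwards, near the 25.1% of all genes, with a median of 1.19. The count was 7 of 10 in cells thinned to 5000 UMIs, beside 23.0% of all genes. It was 9 of 10 without wild-type replicate 2 (median 2.24), without mutant replicate 2 (median 1.51) or at Day 12. The shares of all genes upwards there were 45.9%, 38.3% and, for genes tested on both days, 29.8%. The count was 3 of 10 without mutant replicate 1 (median 0.77), beside 31.5% of all genes. Without wild-type replicate 1 it was 4 with 1 downwards (median 0.78), beside 37.5% and 46.0% of all genes. Their summed level in trophoblast was 63.7 and 95.96 CPM in wild-type and 211 and 129 CPM in mutant libraries, beside 4706 to 13329 CPM in mesenchyme-scored cells. VIM, an intermediate filament of mesenchyme, was at 9.21 and 16.5 against 56.2 and 33.0 CPM (1.83 ± 0.35). PCOLCE, which helps process collagen, was at 2.99 and 1.43 against 10.9 and 8.64 CPM, and SPARC, a matrix protein, at 33.0 and 19.5 against 68.8 and 55.0 CPM. COL1A1, a collagen of the mesenchyme score, was at 2.18 and 6.98 CPM in wild-type and 23.1 and 14.2 CPM in mutant trophoblast, beside 407 to 3374 CPM in mesenchyme-scored cells. No marker of the list was at 0 in any Day 14 library. The part of mesenchymal RNA in the values of DLK1, VIM, FSTL1, TGFBI, SERPINE2 and TIMP1 was not tested. For cells whose trophoblast score led by at least 1, 7 of the 10 markers were separated upwards (median 1.88), beside 25.3% of all genes, with sums of 54.1 and 48.5 against 119 and 87.6 CPM, and 25 of the 33 hypoxia and glycolysis genes were separated upwards.

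Markers of epiblast, endoderm and amnion were too few to set apart from the shares of all genes (25.1% upwards and 21.1% downwards). Of 6 epiblast markers 1 was separated upwards and 1 downwards (median -0.55, and 1.17 without wild-type replicate 1), of 3 endoderm markers 1 upwards (median 0.10, 0.65 without wild-type replicate 1 and -0.25 without mutant replicate 1), and of 5 amnion markers 1 upwards (median 0.38, 0.57 without wild-type replicate 1). POU5F1, an epiblast factor of the score, was at 6.10 and 0.349 CPM in wild-type and 1.92 and 0.485 CPM in mutant trophoblast, highest in wild-type replicate 1.

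The same rule was applied to Day 12, where 9455 trophoblast cells came from 4 libraries of 1 and 2 wild-type and 3 and 1 mutant embryos. No gene of 13656 passed there (0.0%), with 2213 at an unadjusted p under 0.05, and 3 passed with the labelled batch as a block. Of the hypoxia and glycolysis genes 24 of 33 were separated upwards and 2, PFKFB4 and SLC2A1, downwards, beside 29.8% and 18.6% of the 13333 genes tested on both days, with a median of 0.62. Cell cycle genes had no common direction at Day 12, with 10 of 24 upwards, 6 downwards and a median of 0.08. Invasive trophoblast genes were separated upwards in 12 of 17 and downwards in none, and interferon-stimulated genes upwards in 5 of 9 and downwards in none. Of 26 trophoblast regulators and keratins 13 were separated downwards and 3 upwards, with a median of -0.33. Of 7 immediate early and heat shock genes 1 was separated upwards and 1 downwards, with a median of -0.13.

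Of the 20 named genes, 7 of the higher and 4 of the lower ones were separated in the same direction at Day 12. Of all genes tested on both days, 29.8% were separated upwards and 18.6% downwards. WFDC1, among the 7, was too scarce to be tested at Day 12, with 0 UMIs in each wild-type library and 21 and 12 in the mutant ones. DLK1, also among the 7, had 0 and 16 UMIs in wild-type and 591 and 533 in mutant libraries. SPAG4 was at 3.85 and 1.25 CPM in wild-type and 8.01 and 15.3 CPM in mutant trophoblast at Day 12, and NDRG1 at 20.4 and 23.6 against 36.0 and 68.3 CPM. EPSTI1 was further apart at Day 12 than at Day 14, at 1.72 and 7.10 against 34.8 and 37.0 CPM. The Day 12 libraries overlapped for the other 9 genes. CA12 was at 2.67 and 1.50 against 2.09 and 2.93 CPM, and ZFAT at 29.8 and 31.1 against 25.8 and 31.3 CPM. ODC1, among the 4 genes separated downwards, was at 763 and 674 against 668 and 391 CPM. The test of Day 14 against Day 12 passed for no gene of 14651 (0.0%, 1275 at an unadjusted p under 0.05), with 3.08 ± 0.54 for CA12 and 2.79 ± 0.42 for ZFAT (adjusted p = 0.375 and 0.371, edgeR).

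DMRTB1 differed between wild-type libraries as well. It was at 33.6 and 28.6 CPM in the wild-type Day 10 libraries and at 54.0 CPM in wild-type replicate 2 of Day 12, but at 0.520 CPM in wild-type replicate 1 of Day 12, a library of 1 embryo. All 5 mutant libraries lay between 0.558 and 2.60 CPM, so this wild-type library was as low as the mutants. Mesenchyme-scored Day 14 cells gave 70.2 and 78.2 CPM in wild-type and 3.55 and 0.669 CPM in mutant libraries, like the trophoblast. Whether the embryos' origin moves with this gene was not tested.

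**Figure D4:**
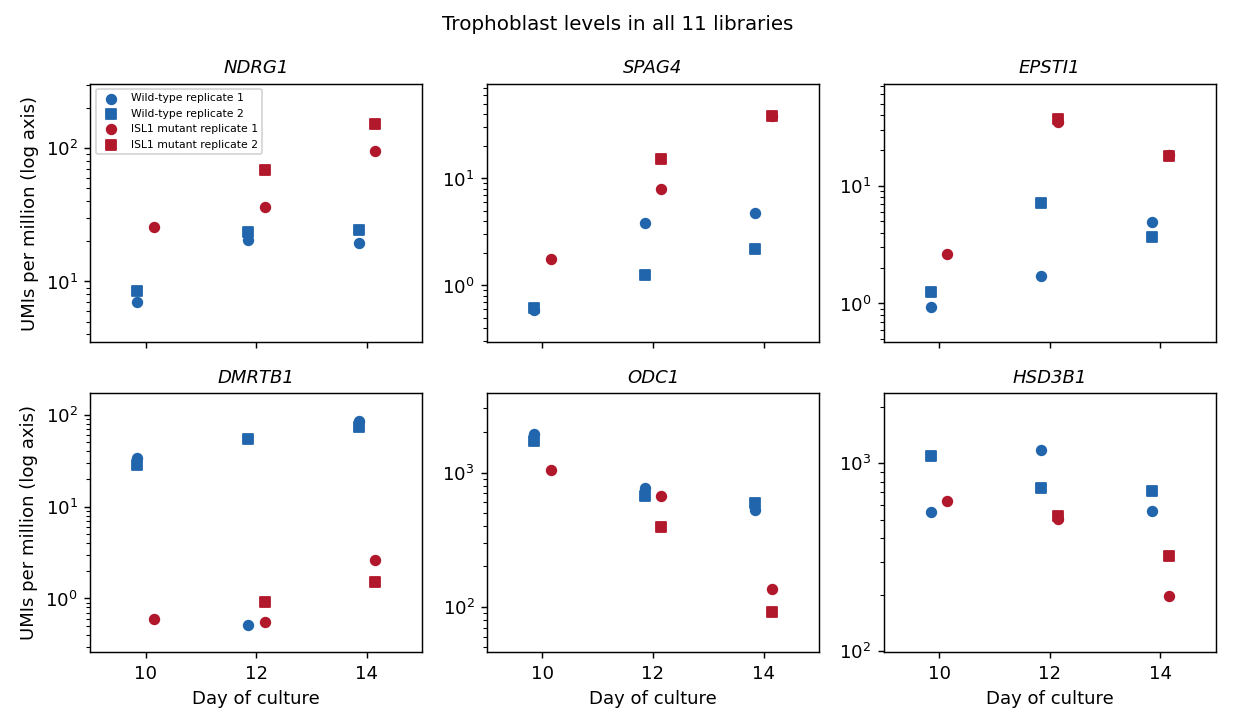
Trophoblast levels in UMIs per 1000000 (log axes) of 6 genes in all 11 libraries by day of culture, wild-type in blue and ISL1 mutant in red, with circles for replicate 1 and squares for replicate 2. NDRG1, SPAG4 and EPSTI1 are above wild-type in the mutant libraries on every day, while DMRTB1 is low in all mutants and in 1 wild-type library of Day 12 (0.520 CPM).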

How the data were processed

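Single-cell libraries had been prepared with the 10x Genomics Chromium 3′ v3 kit. Alignment and counting by the authors used Cell Ranger 3.1.0 (submitters' processing notes) and the Ensembl annotation of Macaca_fascicularis_5.0, release 96. For the corrected table the authors first removed ambient RNA with SoupX, then dropped genes seen in fewer than 3 cells and filtered on gene number and mitochondrial share per sample. The stated mitochondrial limit was 7.5%, yet the median trophoblast cell of mutant replicate 1 lies above it in the deposited corrected values. The deposited corrected values are expected counts, in whole numbers, and the deposited uncorrected values are counts, both unscaled. Genes carry Ensembl identifiers, and 1004 of 19367 were given a symbol from the study's supplementary tables. No other cell was removed and no doublet caller was run. No per-sample column was left unused.

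UMIs were summed per library over trophoblast cells and compared with edgeR 4.0.16 in R 4.3.3 (TMM, filterByExpr, quasi-likelihood F test, Benjamini-Hochberg, 1%), with DESeq2 1.42.0 as an alternative. Levels (CPM) are UMIs per 1000000 of the class. The same fit was used for Day 12 and for mesenchyme-scored cells, and interactions were fitted with the library as a block (cell class) or by contrast (day). Standard errors are those implied by the F statistic. The fit was tested on simulated data. SciPy 1.17.1 gave intervals and permutation tests. The members, gene lists and tests were chosen with earlier results of these data known. Named genes are the 10 of smallest p in each direction with a symbol and outside the scores, none having passed, and up to 4 of smallest p per list; those named beyond this (among them P4HA1, KRT8, KRT18, GATA2, GATA3, TFAP2A, TFAP2C, ENO1, GAPDH, SLC2A1, EPO, PFKFB4, DDIT4, ADM, GCM1, HSD3B1, COL1A1, BMP4 and the ID genes) were chosen after their values were seen. The labels name a batch, B1 or B2, for the libraries of both genotypes, so a fit with the batch as a block was added; deviations of same-numbered Day 14 libraries from their group means correlated at 0.0675 over 13910 genes.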

Additional observations from a re-analysis of the deposited data

How the results depend on the processing

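Each group has 2 libraries of 1 to 3 embryos, so p-values measure the spread between such libraries, and single libraries weigh heavily. At Day 14 edgeR called no gene at 1% under any change of normalization or filter, the uncorrected counts, stricter cell choices or thinning. The main fit tested 13910 genes, and these alternatives 11138 (thinned) to 18265 (no low-count filter). Genes at an unadjusted p under 0.05 numbered 1343 (thinned) to 2102 (cells with at least 1% mitochondrial UMIs). At 5% the main fit called none. Without the low-count filter the smallest adjusted p was 0.0127, and DMRTB1 had 0.0219 (edgeR), both under 5%. DESeq2 called 240 genes at 1% and, chosen after seeing the data, 418 at 5%. In cells without LAIR2 and ISM2 UMIs after thinning, also chosen after seeing the data, 2 genes passed, ZFAT and DMRTB1. With the labelled batch (the replicate number) as a block, 0 genes passed at Day 14 and 3 at Day 12 at 1%, and no other call at 1% changed. In that Day 14 fit DMRTB1 had an adjusted p of 0.0409 (edgeR with the batch as a block), under 5%. Leaving out single Day 12 libraries gave 0 to 53 calls, 21 without wild-type replicate 1 and 53 without wild-type replicate 2. The test of trophoblast against mesenchyme-scored cells called 0 genes under both alternatives.

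All 20 named genes kept their direction under every alternative that tested them, though on the log2 scale EPSTI1 went from 2.08 to 1.77 with thinning and 0.45 in thinned cells without LAIR2 and ISM2 UMIs, and HS3ST3A1 from -1.48 to -0.76 and -0.14. Few UMIs of either gene were left there, and their libraries overlapped. With DESeq2 18 of the 20 passed at 1%, beside 33 higher and 11 lower of all 890 tested genes with a symbol. The 20 were chosen by smallest p in these same libraries, which favours a kept direction and calls by DESeq2. Hypoxia and glycolysis genes separated upwards numbered 25 to 27 of 33 under the alternatives that keep all libraries, and cell cycle genes separated downwards 12 to 16 of 24, beside 21.5% to 26.8% and 20.4% to 24.2% of all genes. With a library left out they numbered 26 to 30 and 15 to 19, beside 31.5% to 45.9% and 26.8% to 46.0%. The mutant minus wild-type share of trophoblast cells was -0.997 percentage points and moved between -6.44 and 0.678, within 1 SD. Without thinning, the difference in the share of cells with a UMI became -9.44 percentage points for ISM2 (10.8 thinned), 5.89 for PAGE4 (14.4), -31.0 for MKI67 (-10.5) and -0.472 for CDKN1C (-0.0728). The cause was not tested.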

Other observations

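Further genes called by DESeq2 at 1% were looked at after their values had been seen, and none passed with edgeR (adjusted p between 0.305 and 0.358). WFDC2 (ENSMFAG00000030693), a secreted protease inhibitor of epithelia, was at 915 and 552 CPM in wild-type and 4568 and 2527 CPM in mutant Day 14 trophoblast, and at 429 and 437 against 1676 and 1379 CPM at Day 12. In Day 14 cells thinned to 5000 UMIs, it was at 920 and 644 against 6144 and 3041 CPM where a LAIR2 or ISM2 UMI was left, while in thinned cells with neither the genotypes overlapped, at 157 and 357 against 268 and 157 CPM. NPPB (ENSMFAG00000032207), the B-type natriuretic peptide, was at 846 and 2245 CPM in wild-type and 113 and 335 CPM in mutant libraries at Day 14, whereas the mutant Day 10 library had 3346 CPM against 525 and 517 CPM in wild-type. NMRK2 (ENSMFAG00000033332), a nicotinamide riboside kinase, was at 4.52 and 21.4 against 1.62 and 1.15 CPM at Day 14. It was lower in the mutant libraries on the earlier days too. The levels were 102 and 130 CPM in wild-type against 15.9 CPM at Day 10, and 45.5 and 30.2 against 14.8 and 5.14 CPM at Day 12.

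RNASET2 (ENSMFAG00000039774), a lysosomal ribonuclease, was at 36.1 and 46.3 against 104 and 159 CPM at Day 14 but at 42.6 and 45.5 against 28.7 and 34.5 CPM at Day 12, where the mutant libraries were the lower ones. LOXL2 (ENSMFAG00000041868), an enzyme that crosslinks collagen, was at 1.40 and 2.06 against 8.77 and 6.08 CPM at Day 14, and mesenchyme-scored cells held 32.2 and 54.3 against 97.5 and 124 CPM.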
